A study of Mus musculus with 6 samples.

Results

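The MEF2 genes encode the myocyte enhancer factor 2 transcription factors. They were chosen by symbol, as the rows of the deposited count table named Mef2a, Mef2b, Mef2c and Mef2d, which gave 4 of 55416 gene rows. All 4 entered the gene-wise test, in which 18511 genes passed the filter on low counts. The family was picked because Mef2c stood out in an earlier look at these same libraries, so the comparison of its levels between the groups is a description and not an independent result.

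MEF2 proteins share an N-terminal MADS box, bind AT-rich sites in DNA as pairs and switch their target genes on or off depending on their partners. In neurons, calcium entry activates them through calcineurin, while class IIa histone deacetylases bound to them keep targets repressed. They are known in the hippocampus and neocortex for limiting the number of excitatory synapses after activity, and loss of 1 copy of human MEF2C causes intellectual disability with seizures. Mef2c is abundant in excitatory neurons of the mouse neocortex and in dentate granule neurons, and is also made by parvalbumin interneurons, microglia and endothelial cells. Mef2a and Mef2d are expressed broadly, and Mef2b is best known from B lymphocytes.

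The libraries came from mouse hippocampus at postnatal day 36. Pups of the EU group had received ethynyluridine (EU), a uridine analogue that new RNA takes up and that can be coupled to biotin by click chemistry, at 50 mg/kg under the skin once on each of postnatal days 3 to 5; pups of the PBS group had received the same volume of phosphate-buffered saline. Both sets of RNA were taken through identical biotin coupling and streptavidin purification before total RNA sequencing, so the 3 PBS libraries measure background binding and the 3 EU libraries background plus RNA that may have kept the label. The labels state neither strain, genotype nor sex, and they do not say whether each library came from its own animal, so the p-values measure the spread between these libraries, which may be partly technical. Totals lay between 39886723 and 58301239 counts per library. PBS replicate 2 stood apart, with 19243 genes detected against 23816 to 26372 in the others and a mean correlation with the other libraries of 0.938 against 0.970 or more. Xist, which female cells express, was at 0.7567 CPM (counts relative to the library size, after edgeR's TMM scaling) in EU replicate 1 and 0.08514 in PBS replicate 1 and at 146 CPM or more in the other 4 libraries, so replicate 1 of each group differed from the rest. edgeR's quasi-likelihood method, run on 18511 genes, left 0 past an adjusted p of 0.05 (0%), while 1459 (7.88%) had an unadjusted p under 0.05. DESeq2 called 288 genes (1.56%).

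The stretches of DNA at the starts of the 3 abundant members differ in composition and in the number of start sites, and are shown because the counts pool the transcripts of every start of a gene. RefSeq windows on build GRCm38.p6 matched all 4 members, with 1 start each for Mef2a, Mef2b and Mef2d and 3 for Mef2c. Each line gives 250 bases before the start and 20 after it, read along the gene. Capitals mark a match to the MEF2 consensus (CTA, then 4 bases that are each A or T, then TAG), the site that the family's own proteins bind.
Mef2a (chr7:67372839-67373108, minus strand): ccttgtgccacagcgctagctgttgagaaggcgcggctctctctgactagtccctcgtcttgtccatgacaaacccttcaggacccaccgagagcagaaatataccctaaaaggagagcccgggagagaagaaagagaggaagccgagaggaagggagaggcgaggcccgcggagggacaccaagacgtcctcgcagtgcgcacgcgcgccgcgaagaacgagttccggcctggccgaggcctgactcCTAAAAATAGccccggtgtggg
Mef2d (chr3:88142122-88142391, plus strand): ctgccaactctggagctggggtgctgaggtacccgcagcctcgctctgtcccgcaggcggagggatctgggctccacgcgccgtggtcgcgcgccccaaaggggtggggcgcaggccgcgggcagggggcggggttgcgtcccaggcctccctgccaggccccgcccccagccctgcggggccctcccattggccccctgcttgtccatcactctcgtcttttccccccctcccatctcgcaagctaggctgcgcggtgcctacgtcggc
Mef2c, start 1 (chr13:83503784-83504053, plus strand): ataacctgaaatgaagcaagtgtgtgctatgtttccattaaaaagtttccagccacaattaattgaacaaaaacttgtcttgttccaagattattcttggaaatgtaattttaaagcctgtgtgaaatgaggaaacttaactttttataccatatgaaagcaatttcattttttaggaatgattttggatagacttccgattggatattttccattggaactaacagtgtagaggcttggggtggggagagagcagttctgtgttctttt
Mef2c, start 2 (chr13:83523406-83523675, plus strand): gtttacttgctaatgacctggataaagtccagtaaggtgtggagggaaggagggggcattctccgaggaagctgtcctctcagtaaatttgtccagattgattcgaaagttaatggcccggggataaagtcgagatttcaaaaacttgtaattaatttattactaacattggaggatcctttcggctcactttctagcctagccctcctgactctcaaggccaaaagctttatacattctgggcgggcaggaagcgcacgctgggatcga
Mef2c, start 3 (chr13:83573357-83573626, plus strand): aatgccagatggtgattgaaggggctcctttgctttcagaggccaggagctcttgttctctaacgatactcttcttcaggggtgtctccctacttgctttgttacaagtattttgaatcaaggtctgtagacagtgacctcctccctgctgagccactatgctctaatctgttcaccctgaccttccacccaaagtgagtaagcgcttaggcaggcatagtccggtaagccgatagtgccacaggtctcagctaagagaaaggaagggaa

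In the Mef2a window the 10 letters CTAAAAATAG begin 2 bases before the transcript start, a form of the MEF2 consensus, whose pattern reads the same on both strands. Both strands of windows of 300 bases were searched. This 10-letter string was taken from the Mef2a window itself. It occurred in 36 of 32851 windows of all genes (0.11%), and any form of the consensus in 183 (0.557%). The windows of Mef2b, Mef2c and Mef2d held no match to the consensus. The CArG box (CC, then 6 bases that are each A or T, then GG) is the related site of the other MADS-box factor SRF. It matched in none of the 6 windows, against 1.63% of all windows. The cyclic AMP response element TGACGTCA (1.79% of all windows) and its core TGACG (20.8%) had no match either. With only 6 windows, the lack of a match does not set these starts apart from all windows. The Mef2d window had a GC content of 72% and that of Mef2a 62.3%, against a median of 52.7% over all windows. Those of Mef2c had 35.7%, 47% and 48.3%, and only 4.3% of all windows had a lower GC content than the first. These letters describe the windows, and the counts do not say which start was used.

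Mef2c (ENSMUSG00000005583, plus strand of chromosome 13, 83652153 to 83815199 in GRCm39) is the member most tied to neocortical neurons. Its level was 183.4, 258.1 and 293.3 CPM in EU replicates 1, 2 and 3. In the PBS libraries it was 128.1, 138.2 and 128.9. Every EU library lay above every PBS library, as did 8.52% of all tested genes, and EU replicate 1 was the nearest to the PBS range. EU averaged 245.0 ± 56.14 CPM and PBS 131.7 ± 5.635 CPM (SD, n = 3 each), which is a ratio of 1.86. The log2 fold was 0.89 (SE 0.139), with an edgeR adjusted p of 0.0956, above the threshold, and the gene ranked 17 of 18511 by p. A log2 fold of at least 0.5 was held by 10.1% of tested genes, among them Mef2c and the near-undetected Mef2b. These are the values for which the family was picked.

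Among the 1944 tested genes with a mean of at least 100 CPM, 3 had a log2 fold as high as that of Mef2c or higher: Mef2c itself, Mir6236 and the mitochondrial gene mt-Nd6. The cut at 100 CPM was chosen after the values were seen. The tests of Mef2c turned on the setting more than its fold did. DESeq2 gave 0.89 (SE 0.196, adjusted p = 0.0008995). By comparison, edgeR with no filter on low counts called 0.797% of genes and Mef2c among them. Leaving out EU replicate 1, the EU library with the lowest level, edgeR gave 1.06 (SE 0.0761, adjusted p = 0.004594), where Mef2c was the 1 gene called. With any other library left out Mef2c was not called (edgeR adjusted p from 0.0659 to 0.5463). Without PBS replicate 2 the log2 fold was 0.93 (edgeR adjusted p = 0.0659, with 20 genes called, 0.103%), and without EU replicate 3, the library with the highest level, 0.74 (edgeR adjusted p = 0.2776).

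**Figure D1:**
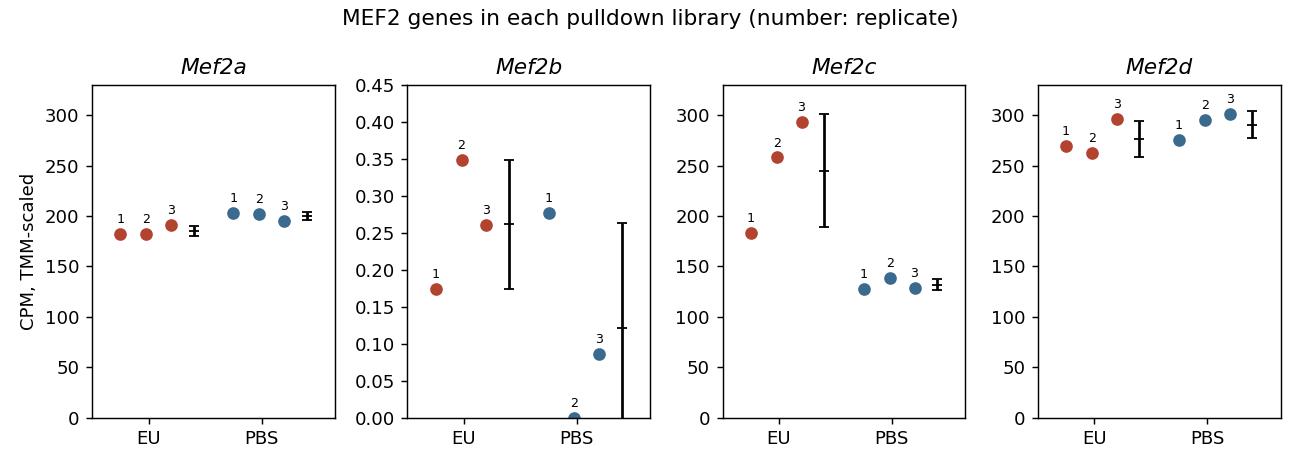
CPM of each MEF2 gene (vertical axis, TMM-scaled; Mef2b on its own scale) in the 3 EU and 3 PBS libraries, numbered by replicate, with the mean and SD as a bar. The Mef2c points of EU spread from 183.4 to 293.3 CPM above a tight PBS group at 128.1 to 138.2, the points of Mef2a, and those of Mef2d, lie close together over the 6 libraries, and Mef2b stays under 0.35 CPM.

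Mef2a (ENSMUSG00000030557, minus strand of chromosome 7, 66880911 to 67022606 in GRCm39), a broadly expressed member, had slightly lower values in EU. Its levels were 182.1, 182.5 and 190.9 CPM in EU replicates 1 to 3 and 202.7, 202.1 and 195.5 in PBS replicates 1 to 3. The groups did not overlap, every EU library being below every PBS library, as for 7.18% of tested genes. The log2 fold was -0.11 (SE 0.0505, edgeR adjusted p = 0.637), and it did not pass. EU averaged 185.2 ± 5.009 CPM and PBS 200.1 ± 3.965 CPM (SD, n = 3 each).

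Mef2d (ENSMUSG00000001419, plus strand of chromosome 3, 88049679 to 88079393 in GRCm39) had the highest counts of the family. It stood at 269.8, 262.3 and 296.2 CPM in EU replicates 1 to 3 and at 275.3, 295.0 and 301.1 in PBS replicates 1 to 3. The groups overlapped, with EU replicate 3 above PBS replicates 1 and 2. The log2 fold was -0.07 (SE 0.0612, edgeR adjusted p = 0.815), from means of 276.1 ± 17.81 and 290.5 ± 13.5 CPM (SD, n = 3 each).

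Mef2b (ENSMUSG00000079033, plus strand of chromosome 8, 70592361 to 70620138 in GRCm39) was near the limit of detection. It had 9, 14 and 11 counts in EU replicates 1 to 3 and 13, 0 and 5 in PBS replicates 1 to 3. PBS replicate 1 lay inside the EU range, and the count of 0 in PBS replicate 2 allows a level of up to 0.0697 CPM by the one-sided limit of 3 counts, or 3.69 counts by the exact two-sided interval. These exact 95% Poisson intervals ran from 4.12 to 17.1 counts for EU replicate 1 and from 1.62 to 11.7 for PBS replicate 3, and cover counting error only, since the counts are of reads and not of tagged molecules. The log2 fold was 1.08 with an SE of 1.16 (edgeR adjusted p = 0.851). It was 0.53 without PBS replicate 2 and 2.43 without PBS replicate 1. A difference between the groups was not detectable with so few counts.

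The make-up of the family was read from the share of each gene, again as a description. Mef2c took 28.9%, 36.7% and 37.6% of the counts of the 4 genes in EU replicates 1 to 3. In PBS replicates 1 to 3 it took 21.1%, 21.8% and 20.6%. The Mef2d share was 39.2% ± 2.81 in EU and 46.7% ± 1.38 in PBS, and the Mef2a share 26.4% ± 2.13 and 32.2% ± 1.13 (SD, n = 3 each). The ratio of Mef2a to Mef2d counts moved little, between 0.645 and 0.736 over the 6 libraries, with the groups overlapping. The ratio of Mef2c to Mef2a was 1.01, 1.41 and 1.54 in EU and 0.632, 0.684 and 0.659 in PBS. The summed level of the family averaged 706.4 ± 72.7 CPM over the EU libraries against 622.4 ± 14.8 CPM over the PBS ones (SD, n = 3 each), and EU replicate 1 (635.4) met PBS replicate 2 (635.3).

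**Figure D2:**
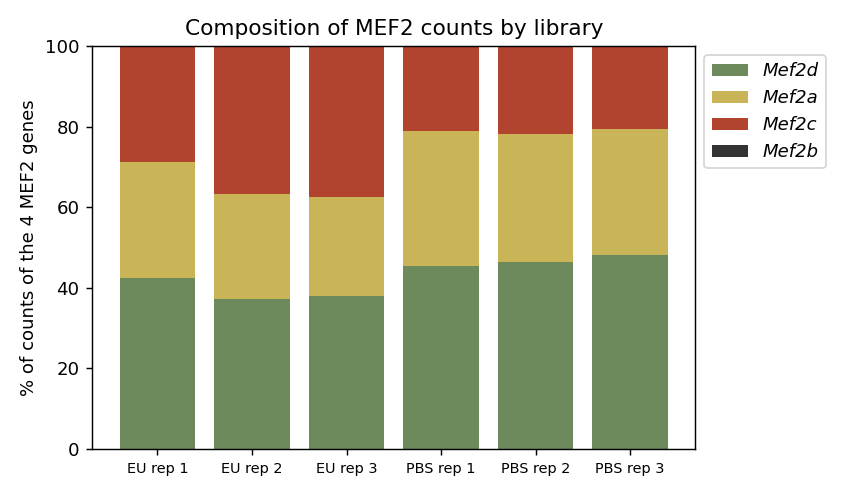
Share of each MEF2 gene in the counts of the 4 genes (vertical axis, percent) in each library, as stacked bars. The Mef2c part of the EU bars is 28.9% to 37.6% against 20.6% to 21.8% in the PBS bars. Mef2b is too small to see.

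Within the EU group Mef2c varied more than most genes of its level. The log2 CPM range over the 3 EU libraries was 0.677 for Mef2c, a width that 12 of the 1944 genes above 100 CPM reached, Mef2c included (0.617%), against a median range of 0.109. Over the 3 PBS libraries its range was 0.11, which 64% of these genes reached. Mef2a had a range of 0.0684 in EU and 0.0516 in PBS, and Mef2d 0.175 and 0.129, widths in EU that 74.2% and 19.5% of these genes reached. The other genes as wide in EU were Xist, the choroid plexus genes Ttr, Enpp2 and Kl, the activity-regulated genes Arc and Egr1, the CA1 marker Wfs1, and Nnat, Mir6236, Trpm3 and Lars2. They were named after their values were seen. Ttr was lowest in replicate 3 of each group (674 CPM in EU and 1552 in PBS) and highest in PBS replicate 1 (4919). Xist split by replicate 1 in both groups, as given above. EU replicate 1, the EU library with the lowest Mef2c, was thus also the one with almost no Xist, while PBS replicate 1, also with almost none, had Mef2c at the PBS level. The part of sex in the Mef2c values was not tested.

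Compared per kilobase of merged exons, Mef2d was the most abundant member in both groups. RPKM values, that is CPM per kilobase of merged exons from GENCODE M21 gene models whose spans equal those in the files for all 4 genes, averaged 47.3 ± 2.7 for Mef2d, 13.1 ± 0.622 for Mef2a, 12.0 ± 4.55 for Mef2c and 0.136 ± 0.0928 for Mef2b (SD, n = 6 libraries). Within libraries the log2 level per length of Mef2a was below that of Mef2d by a mean difference of -1.85 ± 0.0704 (SD), in 6 of 6 libraries (exact two-sided sign-flip permutation p = 0.0312, the smallest that 6 libraries allow, and adjusted p = 0.0469 over 3 pairs). That of Mef2c was below Mef2d by -2.06 ± 0.554, also in 6 of 6 (exact permutation p = 0.0312, adjusted p = 0.0469). Mef2a and Mef2c stood in opposite order in the group means, with 13.6 RPKM for Mef2a and 8.38 for Mef2c on average in PBS and 12.6 and 15.6 in EU. Over the 6 libraries together the mean log2 difference was 0.21 ± 0.576 (SD), ranging from -0.52 to 0.76, with Mef2a higher in 4 of 6, the PBS libraries and EU replicate 1 (exact permutation p = 0.406), which gives no single order of these genes. Merged exons are long for Mef2a (14681 bases, 12 transcripts) and Mef2c (15715 bases, 31 transcripts) and short for Mef2d (5985 bases). By the longest coding transcript the means were 52.4 for Mef2d, 34.8 for Mef2a and 30 for Mef2c, with log2 differences from Mef2d of -0.59 and -0.89, and by coding length neither difference from Mef2d passed (-0.51 and -0.58, exact permutation adjusted p = 0.0938 and 0.188). Coding lengths are 1452 bases for Mef2c and 1542 for Mef2d. At these lengths the Mef2c to Mef2d count ratios of 0.984 and 0.99 put Mef2c above Mef2d in EU replicates 2 and 3. The size of the gap therefore depends on the length used, as does the order of Mef2c and Mef2d in those libraries. The part of the gene in which reads were counted is not given in the sources used here.

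Genes that overlap a member can share its reads, and genes within 500 kb were read beside it. Of 14 genes within 500 kb of Mef2c none overlapped it, and 4 were tested. The nearest of these, the long noncoding RNA C130071C03Rik, lies 54301 bases from it and had 36.16 CPM in EU against 36 in PBS, a log2 fold of 0.01 (edgeR adjusted p = 0.991). The other tested neighbours, Gm26803, 2810049E08Rik and Gm17750, were at no more than 1.1 CPM on average in either group and had log2 folds of -0.15, 0.76 and 0.73 (edgeR adjusted p from 0.826 to 0.981). Mef2a overlaps Lysmd4 on the other strand (14.69 CPM in EU and 13.62 in PBS) and the unconfirmed loci Gm44667 and Gm44668 on its own strand, with group means of at most 1.703 CPM and a highest library of 3.553 CPM (Gm44667 in PBS replicate 2). Mef2d overlaps the noncoding 1700113A16Rik on the other strand, at 0 to 1.277 CPM per library. Mef2b overlaps Borcs8 on the same strand (11.90 CPM in EU and 12.56 in PBS), and whether its few counts are shared with that gene was not tested. Around Mef2b, 43 neighbours were tested, and at an unadjusted p under 0.05, 7 had lower and 0 higher values in EU, against 4.05% and 3.84% of all genes. The 7 included the synaptic scaffold gene Homer3 (log2 fold -0.43) and the CREB coactivator gene Crtc1 (-0.21), chosen after their values were seen. None of the tested neighbours of the 4 members passed edgeR's adjusted threshold. The strand setting of the counting is not given in the sources used here.

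The regulators and cofactors of MEF2, a list of 25 genes written with earlier results of these libraries known, were all tested, and 0 passed in either direction (0% of all genes). The median log2 fold was -0.03 against 0.01 for all tested genes, with 11 values above 0 and 14 below, from -0.27 to 0.27. Leaving out 1 library left 5 (without EU replicate 3) to 13 (without PBS replicate 3) above 0, and the median turned to 0.0032 in the latter case. Every EU library lay above every PBS library for 1 member and below for 3, against 8.52% and 7.18% of all genes. At an unadjusted p under 0.05, 1 member was higher and 2 lower, against 3.84% and 4.05% of all genes. The higher one was Hdac9, a class IIa deacetylase that represses MEF2 targets, at 55.47, 55.56 and 63.63 CPM in EU and 41.44, 51.36 and 51.73 in PBS. Its EU libraries lay above its PBS libraries, and the log2 fold of 0.27 had an SE of 0.0997 (edgeR adjusted p = 0.519). The lower ones were subunits of calcineurin, the calcium-dependent phosphatase that activates MEF2. The regulatory subunit Ppp3r1 stood at 449.4, 461.5 and 502.1 CPM in EU and 537.9, 545.8 and 505.4 in PBS, with all EU values the lower (log2 fold -0.17, SE 0.0559, edgeR adjusted p = 0.459). The catalytic subunit Ppp3cb stood at 215.7 to 218.2 CPM in EU and 235.4 to 235.8 in PBS (log2 fold -0.12, SE 0.046, edgeR adjusted p = 0.551), and the other catalytic subunit Ppp3ca had -0.10 with overlapping groups.

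The remaining class IIa deacetylases had log2 folds of -0.11 for Hdac4, 0.04 for Hdac5 and 0.07 for Hdac7, with overlapping groups. Cabin1, which holds MEF2 in a repressed state, had lower values in every EU library (83.08 to 86.40 against 88.06 to 100.1 CPM; log2 fold -0.14, edgeR adjusted p = 0.657). The acetyltransferases Ep300 and Crebbp, which act as coactivators, had 0.03 and -0.07. The kinases Mapk14 (p38) and Mapk7 (ERK5), which phosphorylate MEF2 and activate it, had -0.03 and -0.25, and Camk4, a calcium-dependent kinase, had 0.18. Srf, the other MADS-box gene listed, stood between 52.87 and 55.03 CPM in all 6 libraries, with a log2 fold of -0.01 (edgeR adjusted p = 0.986) that changed sign without EU replicate 1 or PBS replicate 3.

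Of 12 neuronal genes known as MEF2 targets, also listed with earlier results known, 12 were tested and 0 passed. The median log2 fold was 0.11, with 9 values above 0 (52.2% of all genes were above 0). At an unadjusted p under 0.05 there were 2 higher and 2 lower members, against 3.84% and 4.05% of all genes. All EU libraries lay above all PBS libraries for 1 member and below them for 2, against 8.52% and 7.18% of all genes. Pcdh10, a protocadherin through which MEF2 drives synapse elimination in mouse neurons, stood at 185.4, 199.0 and 216.9 CPM in EU and 154.9, 173.1 and 170.4 in PBS. The groups did not overlap (log2 fold 0.27, SE 0.0712, edgeR adjusted p = 0.319). Klf6, a zinc finger factor, had 0.29 with overlapping groups (SE 0.118, edgeR adjusted p = 0.566). Jun, an immediate early subunit of the AP-1 factor, was at 97.33 to 111.2 CPM in EU against 114.3 to 130.1 in PBS, with all EU values the lower (log2 fold -0.20, SE 0.0743, edgeR adjusted p = 0.53). Arc, the activity-induced gene of dendritic spines, ranged from 167.1 to 393.8 CPM in EU and from 85.7 to 229.4 in PBS, so its log2 fold of 0.53 had an SE of 0.373. Nr4a1, an immediate early nuclear receptor, ranged from 29.95 to 91.90 CPM within PBS alone. Bdnf (-0.01), Slitrk1 (0.05) and Pcdh17 (0.05) were close to 0. Without PBS replicate 1, which had the lowest level of the list, the median was 0.03.

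**Figure D3:**
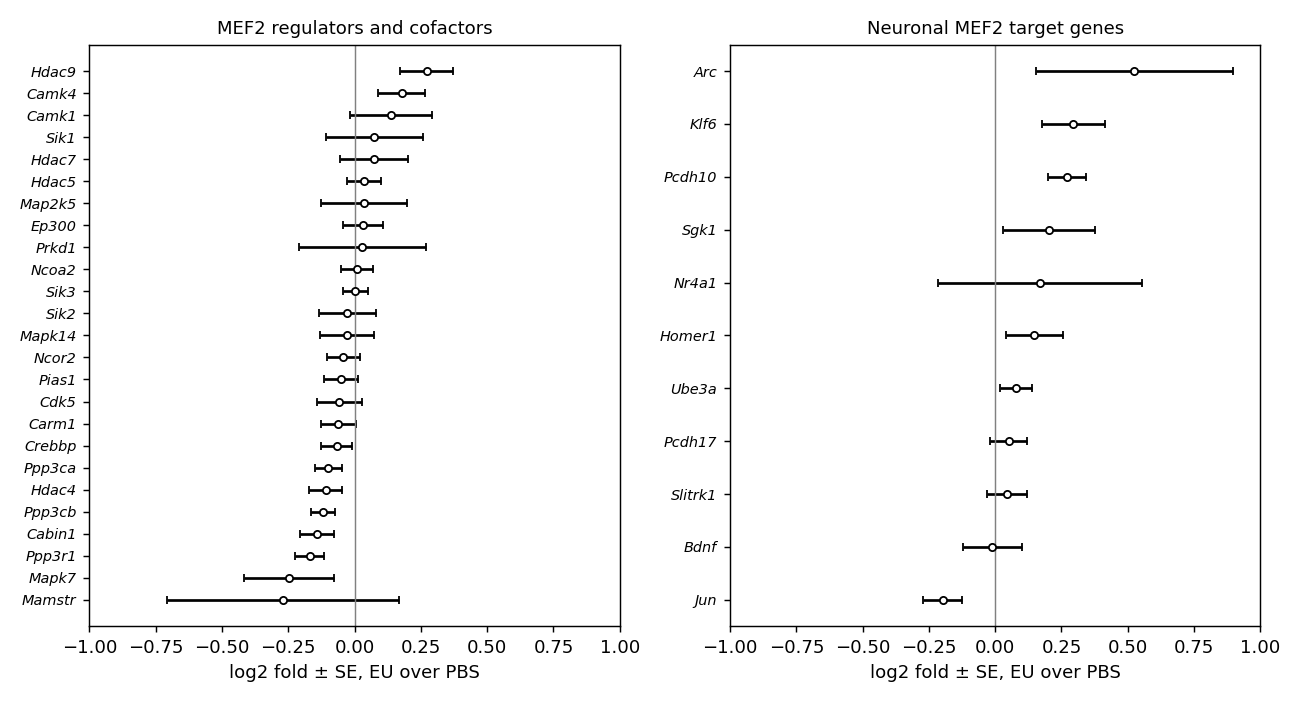
Log2 fold of EU over PBS with its SE (horizontal axis) for 25 regulators and cofactors (left) and 11 of the 12 target genes (right). No gene shown passed the adjusted threshold, the regulators lie between -0.27 and 0.27, and the widest error bar among the targets is that of Nr4a1 (SE 0.386).

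The genes with the profile most like that of each member were ranked by the root mean square difference between log2 CPM profiles over the 6 libraries, each centred on its own mean, among 11247 genes with a mean of at least 5 CPM. For Mef2c these were Zdhhc22 (0.0732), C130074G19Rik (0.0739), Bmp3 (0.0965), Cckbr (0.109) and Tshz3 (0.115). Cckbr, the cholecystokinin B receptor, stood at 15.09, 24.76 and 26.98 CPM in EU and 10.90, 12.65 and 9.871 in PBS. Like Mef2c, all 5 were lowest within EU in replicate 1, and their log2 folds lay between 0.79 and 1.08. Both follow from choosing these genes by their likeness to Mef2c over the same libraries. For Mef2a they were Zfp777, Med4, Rab1b, Ajm1 and Sbf1, at 0.0183 to 0.0202. For Mef2d they were Ccdc92, Bcl7a, Zfp280b, Stxbp5 and Wipf2, at 0.015 to 0.0202. Small distances are common among genes that vary little, and the counts of Mef2b are too few for a profile (0.502 at the nearest).

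The markers of the cell types that hold Mef2c were read beside it, since in bulk RNA fewer cells of a type and less RNA per cell cannot be told apart. Markers of neocortical projection neurons, 11 genes of which 10 were tested, had their highest levels in EU replicates 2 and 3, as did Mef2c. Over the 9 of them with a count in every library, the mean log2 level relative to the 6 libraries was -0.022, 0.278 and 0.343 in EU replicates 1 to 3 and -0.442, 0.062 and -0.218 in PBS replicates 1 to 3. For Mef2c these levels were 0.044, 0.537 and 0.721 in EU and -0.473, -0.364 and -0.465 in PBS. EU replicate 1 was the lowest EU library in both. Over these 9 the marker level of PBS replicate 2 lay above that of EU replicate 1, an overlap that Mef2c did not have. The choice of these 9 was made after the values were seen. Over all 10 tested, with Rspo1 at 0 in PBS replicate 2, the groups did not overlap. The level was then 0.034, 0.372 and 0.434 in EU replicates 1 to 3 and -0.336, -0.362 and -0.142 in PBS replicates 1 to 3. EU exceeded PBS for 8 of the 10 tested, against 52.2% of all genes; the median log2 fold was 0.36, and 0 passed, while 5 were higher and 0 lower at an unadjusted p under 0.05 (3.84% and 4.05% of all genes). Their summed level was 387.2 to 481.6 CPM in EU and 314.3 to 397.8 in PBS, with PBS replicate 2 (397.8) above EU replicate 1 (387.2). Cux2, of the upper layers, stood at 68.72, 89.17 and 97.61 CPM in EU and 52.83, 66.08 and 51.77 in PBS, with no overlap (log2 fold 0.58, SE 0.134, edgeR adjusted p = 0.256). Foxp2, of the deep layers, stood at only 3.453 to 7.909 CPM in EU and 1.66 to 3.053 in PBS. Its groups did not overlap either (log2 fold 1.34, SE 0.346, edgeR adjusted p = 0.309). In 3 of the 10 tested every EU library lay above every PBS library, and in 0 below, against 8.52% and 7.18% of all genes. Fezf2, another deep layer gene, had -0.15 and Tle4 0.04. Themis was at 0 in the 3 PBS libraries and at no more than 0.2244 CPM in EU. Without PBS replicate 2 the median was 0.46, with 9 of 10 above 0. The part of these neurons in the Mef2c values was not tested.

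The other marker lists had medians closer to 0, and 0 of their members passed. Dentate granule neuron markers had a median log2 fold of -0.19, with 6 of 7 below 0, 3 of them at an unadjusted p under 0.05 against 4.05% of all genes, and a summed level of 343.9 to 368.4 CPM in EU and 365.5 to 475.8 in PBS. Prox1, the defining factor of these neurons, was at 148.9 to 160.7 CPM in EU and 161.6 to 207.5 in PBS. Without PBS replicate 1, the library with the highest dentate level, the median was 0.02 with 4 of 7 above 0. CA pyramidal markers, which like the dentate ones belong to the hippocampus named in the sample titles, had a median of -0.15 and summed to 498.4 to 620.4 CPM over the 6 libraries. The CA1 gene Fibcd1 was at 85.78 to 105.1 CPM in EU against 128.2 to 139.3 in PBS (log2 fold -0.51, edgeR adjusted p = 0.106), while Wfs1, also of CA1, had 0.51 with overlapping groups. GABAergic interneuron markers had a median of 0.07, with Pvalb at 16.59 to 19.10 CPM in EU and 13.22 to 19.34 in PBS, and turned to -0.02 without PBS replicate 1. Microglial markers had 0.09 and a summed level of 292.2 to 320 against 271.6 to 309.6 CPM, with -0.02 without PBS replicate 2. Endothelial markers had -0.06 with 4 of 8 above 0, and 1 of 8 without PBS replicate 2. No marker of these lists was at 0 in a library. Astrocyte and oligodendrocyte markers, of types with little Mef2c, had medians of 0.04 and -0.01, the latter 0.01 without PBS replicate 3.

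**Figure D4:**
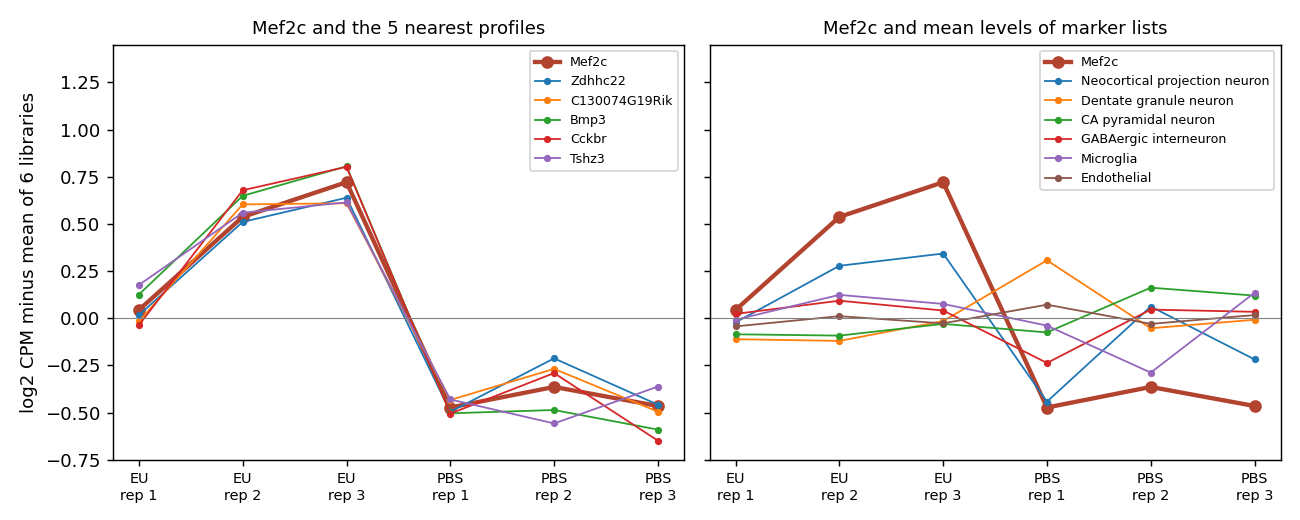
Log2 CPM minus the mean of the 6 libraries (vertical axis) for Mef2c and the 5 genes with the nearest profile (left), and for Mef2c and the mean level of 6 marker lists (right). Lines only join the libraries of 1 gene or list. Lists are averaged over members with a count in every library, which leaves Rspo1 out of the neocortical list. With Rspo1 that list would be at -0.362 in PBS replicate 2 and at 0.034 in EU replicate 1. The neocortical list is highest in EU replicates 2 and 3 (0.278 and 0.343), as is Mef2c (0.537 and 0.721), but in PBS replicate 2 it is at 0.062 against -0.364 for Mef2c, while the other lists stay between -0.288 and 0.307.

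The direction of the 3 abundant members was the same in every setting run, which differed in scaling, filter, tool, block or the library left out. The log2 fold lay between 0.74 and 1.06 for Mef2c, between -0.14 and -0.09 for Mef2a and between -0.13 and -0.04 for Mef2d. Since all comparisons use the same libraries, these settings are not independent of each other.

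**Figure D5:**
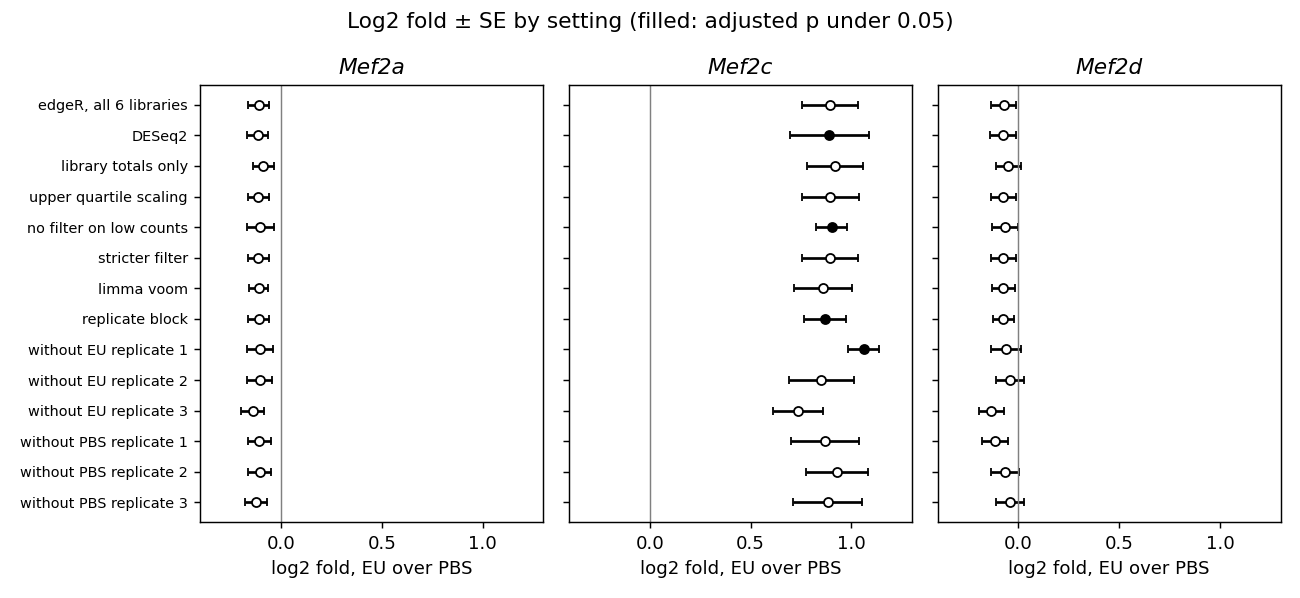
Log2 fold of EU over PBS with its SE (horizontal axis) for Mef2a, Mef2c and Mef2d under each setting (vertical axis), filled where the adjusted p was under 0.05. Mef2c lies between 0.74 and 1.06 throughout and is filled in 4 settings, and the other 2 genes lie just below 0.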

How the data were processed

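RNA from 3 EU and 3 PBS hippocampus pulldowns was analysed, grouped by sample titles. The authors deposited raw read counts per gene without normalization. Per the submitters' processing notes they used bcl2fastq 2.20.0, STAR 2.7.10b and featureCounts 2.0.1 with build GRCm39. The annotation release is not given in the sources used here, nor is the strand setting or the feature counted. The table has 55508 rows. Of these, 92 are ERCC spike-in rows with 0 counts, which were left out. As no spike-in holds counts, a yield higher for all RNAs alike in EU would not show. No 2 libraries agreed within sampling noise (lowest chi-square per degree of freedom 7.16).

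The gene-wise test was edgeR's quasi-likelihood method (version 4.0.16 under R 4.3.3, filterByExpr, TMM, two-sided, treatment as the only term, Benjamini-Hochberg over 18511 genes, threshold 0.05). The SE is the absolute log2 fold over the square root of F. Alternatives were other scalings, no filter, a filter of 1 CPM in 3 libraries, DESeq2 1.42.0, voom in limma 3.58.1, the replicate number as a block, and each library left out. The edgeR test was checked on simulated counts. Lengths came from GENCODE M21 and promoter windows from RefSeq, both on the earlier build GRCm38, so coordinates of the 2 builds are not mixed. Figures used matplotlib 3.10.9.

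The members and lists were chosen with earlier results of these data known. Named were the members, genes within 500 kb that were tested or overlapped, list members and the 5 nearest profiles per member. Genes singled out for their spread or fold at high level, and Xist, were chosen after their values were seen. Single values of 2 list members are not reported here; the list counts and medians include them.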

Additional observations from a re-analysis of the deposited data

How the results depend on the processing

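The number of genes called moved most. It was 0 with library totals only, upper quartile scaling or the stricter filter, 288 with DESeq2 (130 higher and 158 lower in EU), 248 with no filter on low counts, 12 with limma voom and 18 with the replicate number as a block. Leaving out 1 library gave 0 to 20 genes, 20 without PBS replicate 2 and 1 without EU replicate 1, and 0 without each of the other 4.

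Mef2c passed with DESeq2 (log2 fold 0.89), with the replicate block (0.87, edgeR adjusted p = 0.0359) and without EU replicate 1 (1.06). It also passed with no filter (0.90, edgeR adjusted p = 7.818e-19). That p-value rests on an SE of 0.076, against 0.139 for nearly the same fold with the filter, and is not a measure of stronger evidence. Leaving out 1 library gave 0.74 to 1.06, with edgeR adjusted p from 0.0046 to 0.546. The other members passed in none of the settings run, and the stricter filter removed Mef2b. The cause of these moves was not tested.

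The replicate numbers did not meet the standard for pairs: deviations from the group means of libraries with the same number correlated at 0.0638, 0.0237 and 0.0982. Each library correlated best with its own number, a hint from the data and not from the design.

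Per coding length the log2 differences of Mef2a and Mef2c from Mef2d were -0.51 and -0.58 and no longer passed. With 5 libraries the exact test cannot go below 0.0625: the differences were then -1.87 to -1.83 for Mef2a and -2.19 to -1.95 for Mef2c. The difference in Mef2c share, 13.2 percentage points, was 11.6 to 16 with 1 library left out. For the gene lists, leaving out libraries was added after the data were seen. Of the members, only Mef2b is limited by low counts.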
